A study of Homo sapiens with 8 samples.

Results

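The genes described here are 50 genes of DNA replication and the mitotic cell cycle, measured by RNA-seq in Hep3B cells, a human hepatocellular carcinoma line. They were taken by name from the deposited tables and are 50 of 16040 genes in the table of the knockout experiment and 50 of 14955 in the table of the siRNA experiment. All 50 had values in both tables, and all 50 passed the filter on low counts in each. By role, 12 were origin licensing genes, 8 were replication fork genes, 8 were G1/S regulators, 10 were G2/M regulators, 9 were spindle checkpoint and kinetochore genes, and 3 were genes of chromosome structure and division. The 20 licensing and fork genes are called the replication genes below, and the 22 genes of the last 3 roles are called the mitosis genes.

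The 8 libraries fall into 4 conditions with 2 libraries each. The knockout table compares Hep3B with wild type genotype and Hep3B SOX4-/-, in which SOX4 was targeted by CRISPR/Cas9, and per the study's methods its RNA-seq data come from 2 knockout lines, #1 and #2. The labels number the knockout libraries 1 and 2 without naming a line, so the spread between these 2 libraries can hold differences between lines. The siRNA table compares Hep3B transfected with a control siRNA, which the study calls scramble, and Hep3B transfected with STAT6 siRNA. For the other conditions nothing in the labels says that libraries came from separate cultures, so p-values measure only the spread between these libraries, which may there be technical. The knockout cells were kept in puromycin. The study looked for genes that SOX4 and STAT6 regulate jointly, and the cell cycle genes were read from the same libraries.

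Before a cell copies its DNA, the origin recognition complex (ORC) marks replication origins, and CDC6 and CDT1 load the MCM helicase there while geminin (GMNN) holds CDT1 in check. At the fork, the clamp loader RFC places the sliding clamp PCNA on DNA, and polymerases, the flap nuclease FEN1 and the ligase LIG1 copy and join the strands. D-type and E-type cyclins with their kinases carry the cell into S phase and release the E2F factors, which bind the promoters of many replication genes. Cyclin A, cyclin B and CDK1 then drive entry into mitosis, where PLK1, the Aurora kinases, the spindle checkpoint and the kinetochore separate the chromosomes. Many genes of this later group are controlled through the letters of the cell cycle genes homology region (CHR) by the DREAM complex and FOXM1.

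The promoters of the replication and mitosis genes differ in their letters, and short stretches of a few of them are shown to place the genes in these groups. RefSeq promoters on GRCh38.p14, 300 bases from 250 before the start to 50 after it, matched 41 of the 50 genes. AURKA, BIRC5, CCND1, CCNE2, CDK2, FOXM1, MCM4, MCM5 and TTK were not matched. Letters for E2F (TTTCCCGC, TTTCGCGC, TTTGCCGC or TTTGGCGC on either strand) stood in the promoters of 12 of 18 replication genes, 3 of 5 G1/S regulators and 2 of 18 mitosis genes, against 3.99% of 27305 genes in the promoter table. Letters for CHR (TTTGAA on either strand) stood in those of 0 of 18 replication genes, 0 of 5 G1/S regulators and 13 of 18 mitosis genes, against 18.2% of all genes. A match is a description of these letters and not of binding. The licensing genes with an E2F match are shown as 30 bases on the gene's own strand, with the match in capitals.
CDC6, chr17:40287875-40287904, plus strand: ggccattcggaTTTGGCGCgagcgcggctg
CDT1, chr16:88803743-88803772, plus strand: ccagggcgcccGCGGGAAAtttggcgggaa
GMNN, chr6:24775322-24775351, plus strand: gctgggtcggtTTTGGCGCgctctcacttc
MCM2, chr3:127598402-127598431, plus strand: cgtgaaccactTTTCGCGCgaaacctggtt
MCM3, chr6:52284728-52284757, minus strand: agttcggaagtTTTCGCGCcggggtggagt
MCM6, chr2:135876511-135876540, minus strand: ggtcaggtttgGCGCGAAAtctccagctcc
MCM7, chr7:100101388-100101417, minus strand: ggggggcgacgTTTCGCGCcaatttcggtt

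In CDT1 and MCM6 the capitals are the reverse complement of a listed letter string. ORC1, ORC6 and MCM10 held none of these strings in this window. The same view of 4 mitosis genes has the CHR letters in capitals.
PLK1, chr16:23678848-23678877, plus strand: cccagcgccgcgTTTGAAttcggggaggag
CDC20, chr1:43358904-43358933, plus strand: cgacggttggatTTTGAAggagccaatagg
CCNB2, chr15:59105105-59105134, plus strand: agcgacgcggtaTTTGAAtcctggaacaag
MKI67, chr10:128126435-128126464, minus strand: tcttcgttttcgTTTGAAttgggcgggcgc

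In PLK1, CCNB2 and MKI67 the CHR letters began at the same distance before the start, at base -29, and in CDC20 they began at base -65. Other mitosis genes held them elsewhere and as the reverse complement, at base 10 in CDK1, -3 in NDC80 and -151 in TOP2A. The CCAAT letters, on either strand, stood in the promoters of 10 of 18 replication genes and 14 of 18 mitosis genes, against 39.7% of all genes. Of the letters of SOX factors, only AACAAAG and AACAATG were sought, on either strand. They stood in the promoters of 3 of the 41 genes, MCM7, MCM10 and RFC3. That is 7.32%, against 9.95% of all genes. The SOX4 consensus given in the study also allows T in place of either leading A. Strings with such a T were not sought, so these shares do not cover all letters of SOX4.

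Library totals ranged from 16266329 to 25353149 expected counts. Levels are given as CPM, the count scaled by a library size that was TMM-normalized within each table. All 9 hepatoma markers, among them ALB and AFP, were above 1 CPM in all 8 libraries, while the 4 endothelial markers summed to at most 0.77 CPM. The 6 fibroblast markers summed to 2.83 to 93.0 CPM, of which LUM gave up to 85.5 CPM. The 5 leukocyte markers summed to 7.91 to 348 CPM, of which LYZ gave up to 344 CPM. All paired values are given in the order of library 1 and library 2. The targeted SOX4 had 799 and 266 CPM in Hep3B and 298 and 302 CPM in the libraries labelled SOX4 knockout, so its RNA did not separate the groups (edgeR adjusted p = 0.37). These values are of RNA and not of protein. The study probed SOX4 protein in SOX4-/- cells by western blotting and reported diminished SOX4 binding at the MTHFD2 promoter in them. STAT6 had 42.5 and 31.4 CPM with control siRNA and 9.92 and 5.98 CPM with STAT6 siRNA (edgeR unadjusted p = 0.0083, adjusted p = 1.0), and in the knockout table its values were 32.0 and 13.2 CPM in Hep3B and 2.76 and 2.20 CPM in SOX4 knockout (edgeR adjusted p = 0.027).

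In SOX4 knockout, most of the genes that license origins had lower levels than in Hep3B without passing the test, the mitotic kinases and cyclins lay on both sides of their Hep3B levels, and cyclin D1 was higher. By the quasi-likelihood test of edgeR, Benjamini-Hochberg adjusted over 14415 genes, 1 of the 50 genes passed an adjusted p of 0.05, CCND1, where 5.89% of all genes passed. DESeq2 called 8 of the 50, which were CCND1, ORC1, ORC6, CDC6, CDT1, MCM7, MCM10 and CCNE2, where it called 15% of all genes. Without Hep3B library 1 the edgeR test called 10 of the 50, where it called 15.3% of all genes. It called 0 of the 50 without SOX4 knockout library 1, where 0.493% of all genes passed, and 0 without library 2, where 0.14% did. Without adjustment, 9 of the 50 had a p under 0.05 and were lower, where 10.5% of all genes did and were lower. Another 2 of the 50 were higher at that level, against 15.6% of all genes. The 9 lower genes were ORC1, ORC6, CDC6, CDT1, MCM6, MCM7, MCM10, RFC3 and CCNE2, so 7 of the 9 were licensing genes. Both knockout libraries were below both Hep3B libraries in 14 of the 50 genes, where 27.4% of all genes were, and above both in 3 genes, where 30.6% of all genes were. Of those 14 genes, 10 were licensing genes of 12 in that role, while the counts were 1 of 8 fork genes, 1 of 8 G1/S regulators, 0 of 10 G2/M regulators, 2 of 9 spindle checkpoint and kinetochore genes and 0 of 3 genes of chromosome structure and division.

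**Figure D1:**
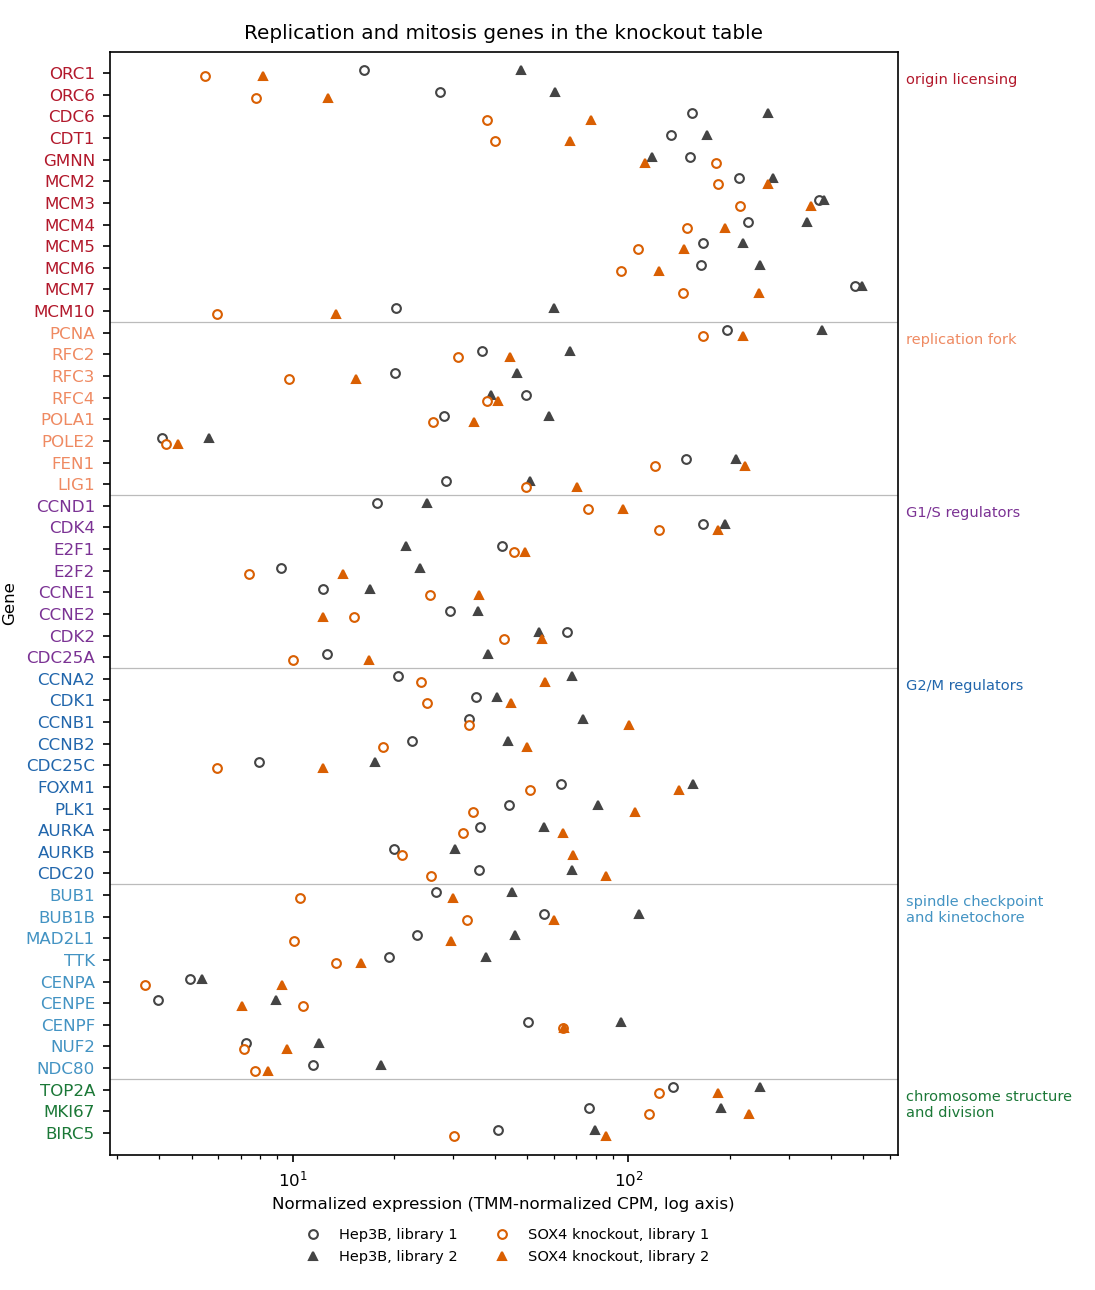
Level of each of the 50 genes in the 4 libraries of the knockout table, as TMM-normalized CPM on a log axis, with genes grouped and coloured by role and each symbol 1 library. In 10 of 12 licensing genes both orange symbols (SOX4 knockout) lie left of both grey symbols (Hep3B), and in 0 of 10 G2/M regulators they do.

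Among the licensing genes, ORC1, the largest ORC subunit, had 16.3 and 47.8 CPM in Hep3B and 5.49 and 8.14 CPM in SOX4 knockout. Its groups did not overlap (log2 fold change -2.24, standard error 0.57, edgeR adjusted p = 0.063). ORC6, the smallest subunit, had 27.4 and 60.4 CPM in Hep3B and 7.76 and 12.8 CPM in SOX4 knockout (log2 fold change -2.10, standard error 0.50, edgeR adjusted p = 0.052). For both ORC genes Hep3B library 2 was far above Hep3B library 1, and both knockout libraries were still below the lower of them. Neither gene passed the threshold in this fit. Both passed without Hep3B library 1 and in DESeq2, and ORC6 also passed with median-of-ratios factors and with a robust fit.

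The loading factors CDC6 and CDT1 were placed like the ORC genes. CDC6 (hg38 chr17:40287894-40303161) had 155 and 261 CPM in Hep3B and 37.8 and 77.2 CPM in SOX4 knockout (log2 fold change -1.85, standard error 0.47, edgeR adjusted p = 0.061). CDT1 (chr16:88803778-88809258) had 134 and 171 CPM in Hep3B and 40.1 and 67.0 CPM in SOX4 knockout (log2 fold change -1.51, standard error 0.39, edgeR adjusted p = 0.063). Each knockout library was below each Hep3B library in both genes. Geminin, the inhibitor of CDT1, was not lower, with 153 and 118 CPM in Hep3B and 183 and 112 CPM in SOX4 knockout, and its groups overlapped.

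MCM2 to MCM7 encode the subunits of the helicase, and MCM10 acts when it is switched on. MCM7 had 474 and 497 CPM in Hep3B and 146 and 244 CPM in SOX4 knockout (log2 fold change -1.32, standard error 0.41, edgeR adjusted p = 0.099). The Hep3B libraries were close to each other here and lay well above both knockout libraries. MCM10 had 20.3 and 60.0 CPM in Hep3B and 5.95 and 13.4 CPM in SOX4 knockout (log2 fold change -2.06, standard error 0.62, edgeR adjusted p = 0.092). MCM3, MCM4, MCM5 and MCM6 were also lower in both knockout libraries than in both Hep3B libraries, among them MCM6 with 164 and 246 CPM in Hep3B and 95.2 and 122.9 CPM in SOX4 knockout (log2 fold change -0.91, standard error 0.37, edgeR adjusted p = 0.17). The exception was MCM2, with 213 and 269 CPM in Hep3B and 185 and 261 CPM in SOX4 knockout, where the groups overlapped (log2 fold change -0.11, standard error 0.37, edgeR adjusted p = 0.875). Among the subunits the fold change was largest for MCM7 and smallest for MCM2.

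The fork genes were closer to their Hep3B levels. PCNA, which had the highest level per kilobase of transcript among the 50 genes in Hep3B (214 CPM per kb), had 196 and 378 CPM in Hep3B and 167 and 219 CPM in SOX4 knockout, and its groups overlapped. RFC3, a small subunit of the clamp loader, had 20.2 and 46.7 CPM in Hep3B and 9.77 and 15.4 CPM in SOX4 knockout (log2 fold change -1.41, standard error 0.50, edgeR adjusted p = 0.13). It was the only fork gene whose knockout libraries were both below both Hep3B libraries. LIG1, which seals the nicks of the lagging strand, had 28.5 and 50.8 CPM in Hep3B and 49.5 and 70.4 CPM in SOX4 knockout (log2 fold change 0.59, standard error 0.41, edgeR adjusted p = 0.40).

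The G1/S regulators parted in direction. CCND1 (hg38 chr11:69641105-69654474), which encodes cyclin D1, had 17.8 and 25.2 CPM in Hep3B and 75.8 and 96.4 CPM in SOX4 knockout. Both knockout libraries were far above both controls, by a factor of 4.01 in the fit, and the gene passed the test (log2 fold change 2.00, standard error 0.38, edgeR adjusted p = 0.032). Over the alternative fits that adjusted p ran from 0.000223 to 0.219, and among the fits without a term for the library number CCND1 lost its call in that of all 8 libraries (0.0629), without SOX4 knockout library 1 (0.127) and without library 2 (0.219). Cyclin E1 and cyclin E2, which both activate CDK2, lay on opposite sides of their Hep3B levels. CCNE1 had 12.3 and 17.0 CPM in Hep3B and 25.6 and 35.96 CPM in SOX4 knockout (log2 fold change 1.07, standard error 0.40, edgeR adjusted p = 0.14). CCNE2 had 29.4 and 35.7 CPM in Hep3B and 15.2 and 12.3 CPM in SOX4 knockout (log2 fold change -1.24, standard error 0.37, edgeR adjusted p = 0.090). The groups of neither gene overlapped.

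E2F1, the activating E2F whose targets include replication genes, had 42.1 and 21.7 CPM in Hep3B and 45.6 and 49.3 CPM in SOX4 knockout. Its knockout libraries were above both controls, but Hep3B library 1 was close to them, and the gene did not pass (log2 fold change 0.57, standard error 0.41, edgeR adjusted p = 0.42). E2F2 had 9.25 and 23.9 CPM in Hep3B and 7.42 and 14.1 CPM in SOX4 knockout. CDK4, the partner of cyclin D1, had 166 and 194 CPM in Hep3B and 123 and 185 CPM in SOX4 knockout. Both E2F2 and CDK4 overlapped between the groups. The exons of CCNE2 share 1629 bases with INTS8 on the opposite strand and those of CDK4 share 1369 bases with TSPAN31. Those of CCND1 share 497 bases with LTO1 and those of MCM7 share 392 bases with AP4M1. In the knockout table INTS8 had a mean of 34.1 CPM, against 23.1 CPM for CCNE2. INTS8 was lower in SOX4 knockout too (log2 fold change -0.85, edgeR adjusted p = 0.21). TSPAN31 (8.72 CPM, log2 fold change 0.19) and AP4M1 (11.6 CPM, log2 fold change 0.22) were far below CDK4 and MCM7 in level. The strand setting of the counting is not given in the sources used here, and whether partner reads entered these counts was not tested.

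In every G2/M regulator the libraries of SOX4 knockout lay further apart from each other than the means of the conditions did. CDK1, the kinase of mitotic entry, had 35.1 and 40.5 CPM in Hep3B and 25.1 and 44.5 CPM in SOX4 knockout. CCNB1, its cyclin, had 33.4 and 73.3 CPM in Hep3B and 33.5 and 100.5 CPM in SOX4 knockout. PLK1 had 44.0 and 81.2 CPM in Hep3B and 34.3 and 104.8 CPM in SOX4 knockout. In each of the 3 genes the libraries of SOX4 knockout spanned or nearly spanned the range of Hep3B. FOXM1, a factor that drives many of these genes, had 62.8 and 156 CPM in Hep3B and 50.8 and 141 CPM in SOX4 knockout. CDC20, the activator of the anaphase promoting complex, had 35.9 and 67.9 CPM in Hep3B and 25.8 and 86.0 CPM in SOX4 knockout. CCNA2 had 20.6 and 68.0 CPM in Hep3B and 24.1 and 56.6 CPM in SOX4 knockout. The higher value was the library numbered 2 in each condition for these genes. AURKA had 36.04 and 56.1 CPM in Hep3B and 32.2 and 63.9 CPM in SOX4 knockout. AURKB, the kinase of the chromosomal passenger complex, had 20.03 and 30.5 CPM in Hep3B and 21.2 and 68.1 CPM in SOX4 knockout. In AURKA and AURKB too the groups overlapped and library 2 was the higher of each condition.

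Over the spindle checkpoint and kinetochore genes the median of the log2 fold changes was -0.80, between the licensing genes at -1.11 and the G2/M regulators at 0.05. The fork genes had a median of -0.31, so they were less far below Hep3B than the spindle checkpoint and kinetochore genes. BUB1, a checkpoint kinase, had 26.8 and 45.0 CPM in Hep3B and 10.5 and 30.02 CPM in SOX4 knockout, with overlap. NDC80, which binds microtubules at the kinetochore, had 11.5 and 18.3 CPM in Hep3B and 7.73 and 8.41 CPM in SOX4 knockout, without overlap (log2 fold change -0.88, standard error 0.45, edgeR adjusted p = 0.26). TTK, the kinase that starts the checkpoint, had 19.4 and 37.7 CPM in Hep3B and 13.4 and 15.9 CPM in SOX4 knockout (log2 fold change -0.96, standard error 0.44, edgeR adjusted p = 0.21). NDC80 and TTK were the only genes of these 9 whose groups did not overlap. CENPF, an outer kinetochore protein, had 50.3 and 94.8 CPM in Hep3B and 63.7 and 64.4 CPM in SOX4 knockout.

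Of the remaining mitosis genes, TOP2A, the topoisomerase that untangles sister chromatids, had 135 and 246 CPM in Hep3B and 123 and 184 CPM in SOX4 knockout. MKI67, which coats mitotic chromosomes and is read as a marker of proliferation, had 76.3 and 189 CPM in Hep3B and 115 and 229 CPM in SOX4 knockout. BIRC5, survivin, had 40.7 and 79.7 CPM in Hep3B and 30.1 and 85.9 CPM in SOX4 knockout. The groups overlapped in all 3 genes.

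**Figure D2:**
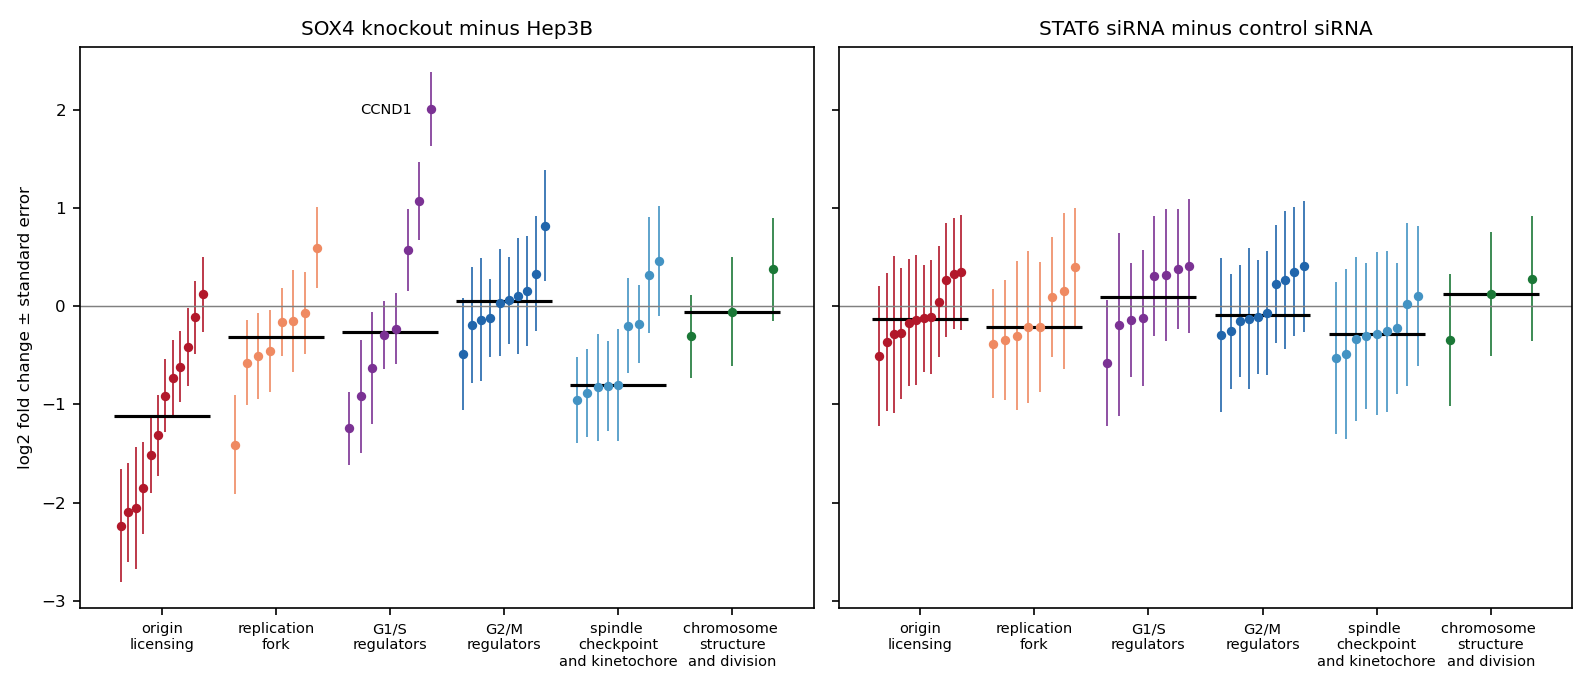
Fitted log2 fold change of each gene with its standard error, grouped by role, for SOX4 knockout against Hep3B (left) and STAT6 siRNA against control siRNA (right), with black lines at the median of each role. On the left the licensing genes have a median of -1.11 and the G2/M regulators 0.05, and CCND1, the only gene past an adjusted p of 0.05, is named, while on the right the medians lie between -0.28 and 0.13.

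In SOX4 knockout the median of the log2 fold changes was -0.60 over the 20 replication genes and -0.13 over the 22 mitosis genes, a difference of -0.47, where the median over all 14415 genes was 0.01. Below 0 were 18 of 20 replication genes and 13 of 22 mitosis genes. Roles within each arm differed, with medians of -1.11 for licensing genes and -0.31 for fork genes. Those of the mitosis roles were 0.05 (G2/M regulators), -0.80 (spindle checkpoint and kinetochore) and -0.06 (chromosome structure and division). Within library number 1 the medians were -0.62 for replication and -0.33 for mitosis genes, and within number 2 they were -0.77 and -0.21. Lower within both numbers were 28 of the 50 genes (33.8% of all genes), 15 of them replication genes and 9 of them mitosis genes, and higher within both were 7 (36.3% of all genes). The arms did not differ in this way without 1 of the libraries. Without SOX4 knockout library 2 the mitosis median was -0.90 and the replication median exceeded it by 0.027, and without Hep3B library 1 the replication median was -1.01. In bulk RNA a smaller share of cells in a cycle phase and less RNA per cell cannot be told apart.

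Genes of the same pathways outside the 50 were read from lists of 45 other replication genes, 60 other mitosis genes and 30 pocket proteins, inhibitors and other regulators. By the edgeR test in SOX4 knockout, 1 of the 45 rose and 0 fell, 0 of the 60 rose or fell, and 1 of the 30 rose and 1 fell. Of all 14415 genes, 648 rose and 201 fell by that test, together 5.89%. The medians of the log2 fold changes of the lists, in that order, were -0.30, -0.28 and -0.41. The medians of the other replication and other mitosis genes thus lay close together, unlike those of the replication and mitosis genes among the 50. Both knockout libraries were below both Hep3B libraries in 16 of the 45 and 16 of the 60, where 27.4% of all genes were. POLD4, the smallest subunit of polymerase delta, had 29.7 and 20.6 CPM in Hep3B and 132 and 156 CPM in SOX4 knockout (log2 fold change 2.52, standard error 0.37, adjusted p = 0.019). CDKN1A, the CDK inhibitor p21, had 75.6 and 76.1 CPM in Hep3B and 216 and 363 CPM in SOX4 knockout (log2 fold change 1.93, standard error 0.39, adjusted p = 0.037). LIN54, the DREAM subunit that reads the CHR letters, had 67.5 and 64.0 CPM in Hep3B and 14.7 and 13.6 CPM in SOX4 knockout (log2 fold change -2.22, standard error 0.35, adjusted p = 0.022). For these 3 genes the groups did not overlap and lay far apart, and each lost its call without either of the knockout libraries.

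Other regulators that bear on the G1/S switch did not pass the test. RB1, the pocket protein that holds E2F, had 12.7 and 4.96 CPM in Hep3B and 4.35 and 1.76 CPM in SOX4 knockout. CDKN2A had 247 and 169 CPM in Hep3B and 69.8 and 140 CPM in SOX4 knockout, and CDKN1B had 70.1 and 64.2 CPM in Hep3B and 67.5 and 58.2 CPM in SOX4 knockout. CCND2, a further D-type cyclin, was below 2 CPM in every library of the knockout table. With STAT6 siRNA, 29 of the 30 regulators were tested, and 0 genes of the 3 lists passed, as 0 of all 13554 genes did.

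With STAT6 siRNA, the same 50 genes had values on both sides of their control levels, and none of their differences passed the test. By the edgeR quasi-likelihood test 0 of 13554 genes passed (0%), so 0 of the 50 did, and at an unadjusted p under 0.05 there were 14 genes (0.103%) and 0 of the 50. DESeq2 called 0 genes as well. The targeted STAT6, lower by a factor of 4.65 in the fit, did not pass either, so 0 calls do not show that the genes were unchanged. The medians of the log2 fold changes were -0.15 over the replication genes and -0.14 over the mitosis genes, beside -0.03 over all genes. Both STAT6 siRNA libraries were below both controls for 3 of the 50 genes, CCND1, FEN1 and CCNB2, where 5.26% of all genes were, and above both for 0, where 2.74% of all genes were. Lower within both library numbers were 20 of the 50 (32.7% of all genes) and higher within both 13 (29.3% of all genes).

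CCND1 had 35.4 and 45.8 CPM with control siRNA and 23.4 and 31.1 CPM with STAT6 siRNA, the largest change of the 50 genes (log2 fold change -0.58, standard error 0.64, edgeR adjusted p = 1.0). Its difference was -0.60 within library number 1 and -0.56 within number 2. MAD2L1, a checkpoint protein, had 17.1 and 30.2 CPM with control siRNA and 7.20 and 25.4 CPM with STAT6 siRNA. Library 1 was the lower of each condition in CCND1 and MAD2L1, as it was in ORC6 and CENPE. ORC6 had 20.4 and 27.5 CPM with control siRNA and 10.7 and 23.0 CPM with STAT6 siRNA. CENPE, a kinetochore motor, had 1.30 and 5.55 CPM with control siRNA and 1.40 and 3.47 CPM with STAT6 siRNA. E2F2 had 27.2 and 18.2 CPM with control siRNA and 38.8 and 21.5 CPM with STAT6 siRNA. Only in CCND1 among these 5 genes, the 5 with the largest changes, did the groups not overlap. The groups of other licensing genes overlapped here. CDC6 had 56.9 and 94.6 CPM with control siRNA and 31.0 and 94.0 CPM with STAT6 siRNA. CDT1 had 180 and 151 CPM with control siRNA and 266 and 133 CPM with STAT6 siRNA. ORC1 had 27.6 and 25.6 CPM with control siRNA and 26.0 and 22.3 CPM with STAT6 siRNA. In all 3 the ranges of the conditions crossed. MCM7 had 615 and 446 CPM with control siRNA and 681 and 412 CPM with STAT6 siRNA, and MCM10 had 9.50 and 23.0 CPM with control siRNA and 6.76 and 19.8 CPM with STAT6 siRNA. FEN1, the flap nuclease of the fork, had 161 and 152 CPM with control siRNA and 107.6 and 132 CPM with STAT6 siRNA, without overlap.

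The effects of the knockout and of the siRNA were set against each other in a fit of all 8 libraries. The difference between them passed for 11 of 14313 genes (0.0769%) and for 0 of the 50. Given here are the 3 of the 50 that ranked lowest by unadjusted p. For CCND1 the knockout effect exceeded the siRNA effect by 2.47 on the log2 scale (standard error 0.73, edgeR adjusted p = 0.298). For ORC1 the difference was -2.21 (standard error 0.86, edgeR adjusted p = 0.565) and for CDT1 it was -1.91 (standard error 0.75, edgeR adjusted p = 0.589). None of these differences was separated from the spread between libraries by the test across all genes.

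**Figure D3:**
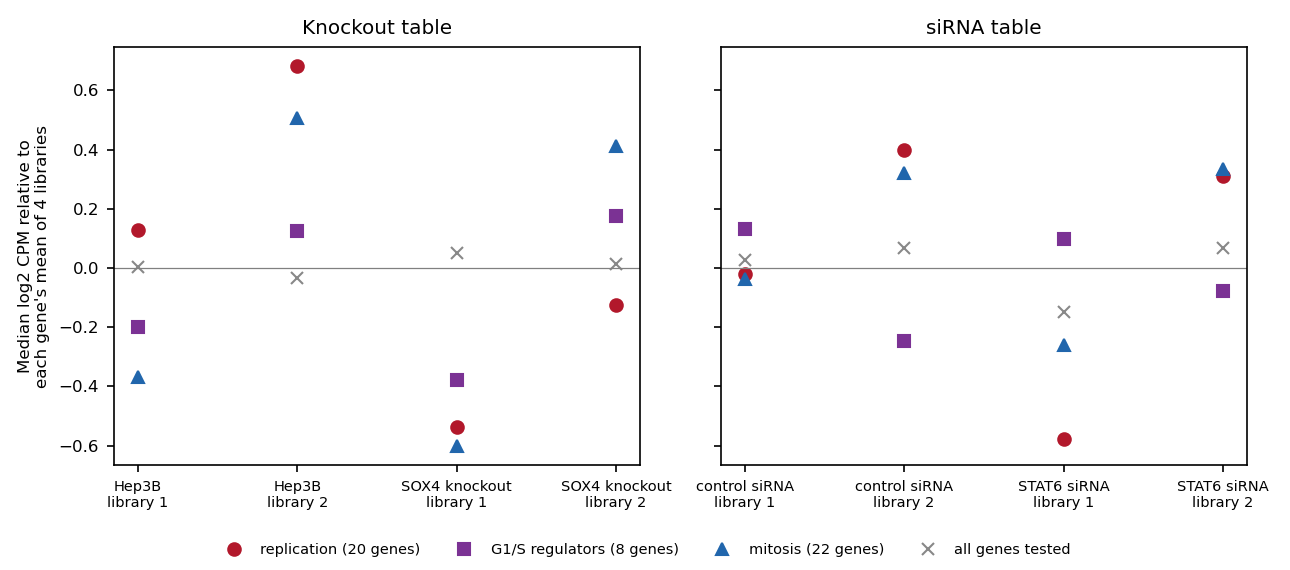
Median over the genes of each arm of log2 CPM relative to each gene's own mean over the 4 libraries of its table, for each library of the knockout table (left) and the siRNA table (right). Mitosis genes are at -0.37 and -0.60 in the libraries numbered 1 and at 0.51 and 0.41 in those numbered 2 of the knockout table, while replication genes are at 0.13 and 0.68 in Hep3B and at -0.54 and -0.13 in SOX4 knockout.

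Between the libraries of a condition, most of the cell cycle genes of the knockout table differed in the same direction. Library 2 was above library 1 in both Hep3B and SOX4 knockout for 44 of the 50 genes, where 24.7% of all genes were, and below it in both for 1, GMNN, where 26.2% of all genes were. The 44 genes were 18 of 20 replication genes, 5 of 8 G1/S regulators and 21 of 22 mitosis genes, including all 10 G2/M regulators. The median difference of library 2 from library 1 was 0.59 (log2 CPM) for replication and 0.93 for mitosis genes in Hep3B, and 0.51 and 1.13 in SOX4 knockout. Over all genes these medians were 0.00 and -0.02. In a fit with the library number beside the condition, 0 genes passed the edgeR test (0%), DESeq2 called 6 genes and 0 of the 50, and 20 of the 50 were higher in library 2 at an unadjusted p under 0.05, against 1.39% of all genes. Those 20 held 13 mitosis genes, 5 replication genes and 2 G1/S regulators.

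The largest fitted differences between library numbers in the knockout table were those of CCNA2 at 1.48 (standard error 0.39), FOXM1 at 1.39 (standard error 0.36), MCM10 at 1.37 (standard error 0.40), CCNB1 at 1.36 (standard error 0.37) and CDC20 at 1.33 (standard error 0.40), each with an edgeR adjusted p of 0.997. These are differences on the log2 scale from the pairs of values given above, in which library 2 was the higher in both conditions. MKI67 stood at 1.14 (standard error 0.37, edgeR adjusted p = 0.997). E2F1 was lower in library 2 of Hep3B and slightly higher in library 2 of SOX4 knockout. Across all 14415 genes the library 2 to library 1 differences of the 2 conditions had a Pearson correlation of -0.085, and across the 50 genes one of 0.39, with genes of a library sharing its depth and composition.

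In the siRNA table the library number divided the cell cycle genes in another way. With the condition in the model, the edgeR test between library numbers rests here on 1 residual degree of freedom and a spread shared across genes. By that test 23 of the 50 genes were higher in library 2 (39.2% of all genes) and 17 lower (32% of all genes), which makes 40 of the 50 in either direction. Without a test, 26 of the 50 were higher in library 2 of both conditions, against 47.6% of all genes, and 21 lower in both, against 42.8%. By role, 8 of 9 spindle checkpoint and kinetochore genes were called higher in library 2 and 6 of 10 G2/M regulators lower.

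CENPF had 10.7 CPM in library 1 and 60.7 in library 2 with control siRNA, and 14.99 and 41.6 CPM with STAT6 siRNA, a fitted difference between library numbers of 1.99 (standard error 0.22, edgeR adjusted p = 8.51e-18). CCNE2 had 3.28 and 14.5 CPM with control siRNA and 2.42 and 13.1 CPM with STAT6 siRNA, a difference of 2.27 (standard error 0.26, edgeR adjusted p = 7.59e-17). In these genes library 2 was higher in each condition. PLK1 had 349 and 160 CPM with control siRNA and 493 and 156 CPM with STAT6 siRNA, a difference of -1.39 (standard error 0.23, edgeR adjusted p = 6.00e-09). AURKB had 112 and 40.2 CPM with control siRNA and 138 and 45.2 CPM with STAT6 siRNA, a difference of -1.55 (standard error 0.21, edgeR adjusted p = 5.63e-12). CDC20 had 248 and 107.6 CPM with control siRNA and 360 and 111 CPM with STAT6 siRNA, a difference of -1.45 (standard error 0.22, edgeR adjusted p = 6.62e-10). In the knockout table the same 3 mitosis genes were higher in library 2 of both conditions.

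The GC content of the transcript moved with these differences. It ran from 35.4% to 64.9% over the 50 genes, and its Spearman correlation with the library 2 to library 1 difference was -0.78 with control siRNA and -0.85 with STAT6 siRNA across the 50 genes, and -0.75 and -0.82 across all genes tested. In the knockout table it was -0.18 and 0.28 across the 50 genes. These correlations are across genes that share a library, and genes are not independent replicates. Spindle checkpoint and kinetochore genes had a median GC content of 40.1% and G1/S regulators one of 52.3%. In a fit offset for transcript GC content and length, 10 of the 50 genes were called higher in library 2 (19.8% of all genes) and 13 lower (20% of all genes), and by role 1 of 9 spindle checkpoint and kinetochore genes was then higher while 9 of 10 G2/M regulators were lower. The G2/M regulators had a median fitted difference of -0.59 without and -0.68 with these offsets, where all genes were at 0.11 and -0.01. In the knockout table the G2/M regulators had a median difference of 1.22 with or without the offsets. The part of GC content in the siRNA libraries was not tested beyond this fit.

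**Figure D4:**
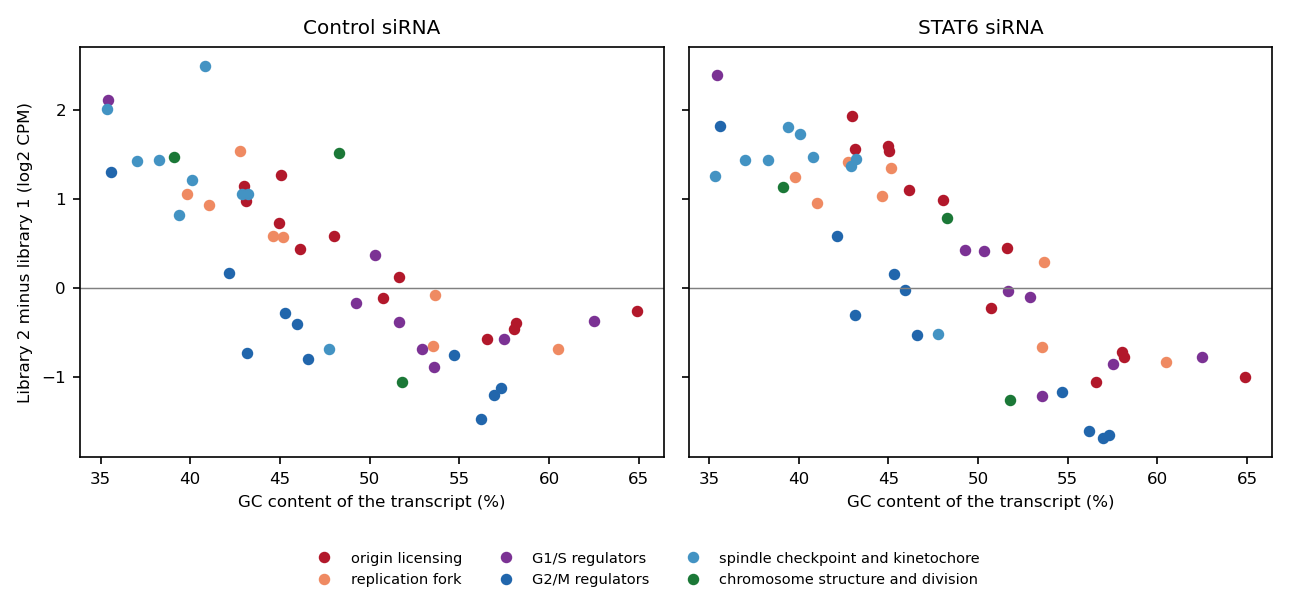
GC content of the transcript in percent against the difference of library 2 from library 1 in log2 CPM for the 50 genes, with control siRNA (left) and STAT6 siRNA (right), coloured by role. Genes of low GC content, such as CCNE2 and CENPE, lie above 1 in both panels, the genes of highest GC content, such as CDT1 and E2F1, lie below 0, and the blue G2/M regulators lie low at their GC content apart from CDK1.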

How the data were processed

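RNA-seq of 8 Hep3B libraries was used. Per the submitters' notes the builds and tools were hg38, STAR and Partek, and versions and counting settings are not given in the sources used here. The authors deposited 2 tables of expected counts (estimated reads per RefSeq transcript, not normalized) from a stranded mRNA kit, and every transcript summed to at least 10 over its 4 libraries. Estimated counts divide reads that near-identical genes share, so such genes are uncertain. The tests had been planned for whole counts, and here the estimates were added up by gene and rounded first. Each table was fitted separately with edgeR 4.0.16 under R 4.3.3 (TMM, filterByExpr, glmQLFit, glmQLFTest). Genes were called at a Benjamini-Hochberg adjusted p below 0.05. Standard errors are the fold change divided by the root of the F statistic. Differences between single libraries are log2 CPM with a prior count of 2. Alternatives used other scaling, DESeq2 1.42.0, other filters and fits, GC and length offsets (mgcv 1.9.3, GENCODE transcripts), a replicate block and leaving out each library. Steps were tested on simulated data. Depth was 16266329 to 25353149 counts per library. The lowest of the 50 genes, CENPE, had 19 counts in 1 siRNA library and 70 in 1 library of the knockout table, a Poisson error of 22.9% and 12.0%, which covers counting only. The genes and lists were chosen with earlier results of these data known. Values per library were given for genes called, the 5 largest changes of a comparison and a fixed list of each role's main genes, and the other genes were named for a count or a pattern after their values were seen.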

Additional observations from a re-analysis of the deposited data

Results flagged for a closer look

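CCND1 lay on opposite sides of its controls in the 2 comparisons. Both SOX4 knockout libraries were above both Hep3B libraries, and both STAT6 siRNA libraries were below both control siRNA libraries. The effect of the knockout exceeded that of the siRNA by 2.47 on the log2 scale, with a standard error of 0.73 and an edgeR adjusted p of 0.298 over 14313 genes (unadjusted p = 0.00438), so the difference did not pass its test across all genes. It passed with GC and length offsets (adjusted p = 0.0498) and with the library number as a block within each table (adjusted p = 0.0352), and the range over all fits was 0.0352 to 0.897. With 2 libraries per condition, no single library could be tested as an outlier.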

How the results depend on the processing

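In SOX4 knockout the count of 1 gene called of 50 (5.89% of all genes) became 2 with median-of-ratios factors (6.55%), 2 with robust = TRUE (6.23%), 2 with GC and length offsets (4.37%) and 8 with DESeq2 (15%). It became 0 in a fit of all 8 libraries (3.06%). With the library number as a replicate block it was 6 (6.81%), which were CCND1, ORC1, ORC6, CDC6, CDT1 and MCM10. With the block and offsets it was 0 (0.259%), where CCND1 had an adjusted p of 0.0756. With the block in DESeq2, an alternative added after the data were seen, it was 7 (11.7%), those 6 and MCM7. CCND1 was among the calls wherever any were made. Leaving out 1 library gave 0 to 10 calls, 10 of them without Hep3B library 1 (15.3%), when ORC1, ORC6, CDC6, CDT1, MCM10, RFC3, CCNE2, CDC25A and TTK joined CCND1, and 0 without either knockout library. The lone library left in a group was assumed to vary like the other group. In STAT6 siRNA the count of 0 stayed 0 in 15 of 16 alternatives and was 3 with the block and offsets, where 2.79% of all genes were called. The 3 were CCND1 at -0.50 (edgeR adjusted p = 0.013), FEN1 at -0.43 (0.0088) and MKI67 at 0.47 (0.0041). Of all genes, 62 were called with the block alone (0.457%) and 375 with block and offsets. Leaving out 1 library gave 0 to 0 calls. The difference between the effects went from 0 to 1 with offsets (0.565% of all genes) and to 1 with the block within each table (0.678%), CCND1 in both. The 40 calls between siRNA library numbers (71.2% of all genes) became 23 with offsets (39.8% of all genes). The cause was not tested.

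The labels give only the number to tie libraries of the same number. Libraries of the same number deviated together across genes with r = 0.87 in the siRNA table and -0.085 in the knockout table, and 2 pairs do not show a pairing.

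Leaving out 1 library, the medians in the knockout ran from -1.01 to -0.39 for replication genes, from -0.90 to 0.39 for mitosis genes and from -0.80 to 0.027 for their difference, and in the siRNA from -0.71 to 0.13, from -0.32 to 0.06 and from -0.39 to 0.15. The same removal moved the log2 fold change in the knockout between -2.87 and -1.26 for ORC1, -2.62 and -1.42 for ORC6, -2.50 and -1.42 for CDC6, -1.97 and -1.18 for CDT1, -2.80 and -1.08 for MCM10, -1.77 and -0.98 for MCM7, -1.23 and -0.60 for MCM6, -1.95 and -0.69 for RFC3, -1.42 and -0.40 for TTK, -1.24 and -0.51 for NDC80, 0.17 and 1.07 for E2F1, 0.18 and 1.06 for LIG1, 0.77 and 1.32 for CCNE1 and -0.42 and 0.13 for MCM2, and in the siRNA that of MAD2L1 between -1.72 and 0.11, CENPE between -1.30 and 0.92, GMNN between -1.65 and 0.32, MKI67 between -0.24 and 1.23 and CCNB2 between -0.44 and 0.019. Genes whose fold change lay near 0 and is not given above, such as CCNB2 and CDC20 in the knockout, also changed sign under other settings. The design has 2 libraries per condition, and the lowest genes, such as CENPE, rest on few counts.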
